A study of Mus musculus with 8 samples.

Results

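Respiratory complex I of the mitochondrial inner membrane was examined through the genes whose symbol starts with Nduf, in fetal livers of Eklf knockout (KO) and wild-type (WT) mouse embryos. The members were all probe sets that the platform annotation pairs with 1 symbol of that kind, which gave 88 probe sets for 44 genes, out of 34945 probe sets for 18193 genes with 1 symbol. Total RNA of E14.5 fetal liver was hybridised to Affymetrix mouse arrays, with 4 arrays of Eklf-/- fetuses (replicates 2 to 5) and 4 arrays of WT fetuses (replicates 1 to 4), all from uncultured tissue. Per the methods, the homozygous KO line was made in B6 mice from an engineered Eklf locus and E2A-Cre mice, and the strain of the WT fetuses is not given there. Values are log2 MAS5.0 signals, and a gene stands for its brightest probe set over the 8 arrays. "Called" means an adjusted p under 0.05 in limma, with Benjamini-Hochberg adjustment over the 23379 probe sets whose KO or WT mean exceeded a signal of 100.

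Complex I takes electrons from NADH, passes them along iron-sulfur clusters to ubiquinone and pumps protons across the inner membrane. Core subunits carry the catalysis, accessory subunits surround and hold them, and assembly factors such as the Ndufaf proteins help to build the complex without staying in it. In erythroid precursors, which fill the fetal liver at this stage, mitochondria make the heme of haemoglobin and are removed when the red cell matures.

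Klf1, the gene that encodes EKLF, had log2 signals of 10.81, 10.56, 10.65 and 10.59 in the KO arrays, against 14.04, 13.87, 13.98 and 13.90 in the WT arrays. Every KO array lay far below every WT array (difference -3.29, SE 0.10, limma adjusted p = 5.9e-07), and no source used here says whether this probe set lies in the deleted stretch. The 4 KO arrays correlated with each other at r of 0.956 to 0.978, the 4 WT arrays at 0.974 to 0.978, and KO with WT arrays at 0.859 to 0.909. The submitters' sample names carry 1 code for the KO arrays and another for the WT arrays; what the codes stand for is not stated, they cannot be told apart from genotype, and the p-values measure only the spread between these arrays. Xist was at a log2 signal of 13.03 in WT replicate 1 and at 5.37 to 6.84 in the other 7 arrays.

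Of the 44 Nduf genes, 43 passed the filter on low signals, and 28 of these (65.1%) were called lower in KO livers while 1 was called higher. Over all 11275 tested genes, 21% were called lower and 25.5% higher. The median log2 difference (KO minus WT) was -0.44 over the Nduf genes, with 39 of 43 differences below 0, beside 0.06 over all genes. All KO arrays lay below all WT arrays for 28 Nduf genes and above them for 2, beside 20.9% and 24.4% of all tested genes. In whole liver, fewer cells of a type and less RNA per cell cannot be told apart.

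The deposited MAS5.0 scaling gives every array the same trimmed mean signal. The Nduf median was also below 0 after quantile normalization and after scaling by the 75th percentile or by the poly-A controls, which are spiked into the RNA, and it turned to 0.31, with 0 genes called lower by limma (0 also at an unadjusted p under 0.05) and 19 called higher (44.2%, beside 75.2% of all genes), when arrays were scaled by the hybridisation controls, which are added just before hybridisation. Under that scaling the median of all genes moved up by 0.75, reaching 0.81. Such scaling moves the difference of every gene by the same amount. The Nduf median therefore had to stay 0.50 below the median of all genes (-0.50 as a difference), and the unchanged distance is no sign of agreement. Among the scalings only quantile normalization could change that distance, and it gave -0.16. Ndufb4, the one gene not tested, had mean log2 signals of 4.96 in KO and 4.68 in WT livers.

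**Figure D1:**
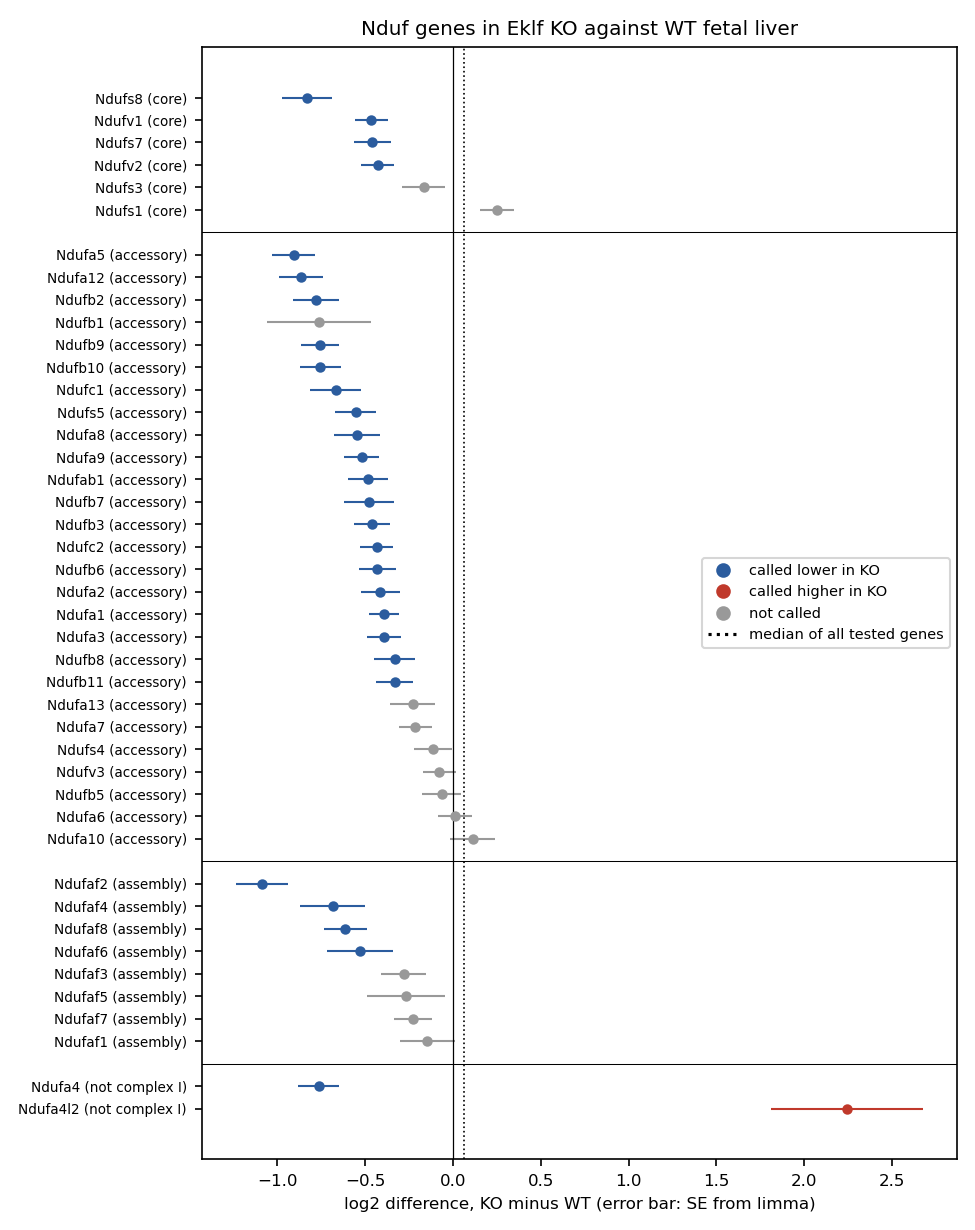
The x axis is the difference in log2 signal, KO over WT, of each of the 43 tested Nduf genes, with SE from limma, grouped into core subunits, accessory subunits, assembly factors and the 2 genes not counted to complex I. Most points lie left of 0 and of the dotted median of all tested genes (0.06), and Ndufa4l2 stands alone at 2.24; scaling by the hybridisation controls moves every point right by 0.75 and puts the Nduf median at 0.31.

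The fall was read against signal level, because differences in these arrays went with brightness. Among tested probe sets with a mean log2 signal under 7 the median difference was 0.71, and among those of 14 and above it was -0.51. The interquartile range of the Nduf genes ran from a mean log2 signal of 11.55 to 12.84. In that range 39.1% of all 1043 tested genes were called lower, with a median difference of -0.21, while 13 of the 21 Nduf genes in the range (61.9%) were called lower, with a median of -0.46. Quantile normalization, which gives all arrays the same distribution, left 17 Nduf genes lower and 2 higher, with a median of -0.25 beside -0.09 for all genes. These were 39.5% and 4.65% of the Nduf genes, beside 25.8% and 16.5% of all genes. Of the 28 genes called lower with the deposited scaling, 14 were still called lower then.

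**Figure D2:**
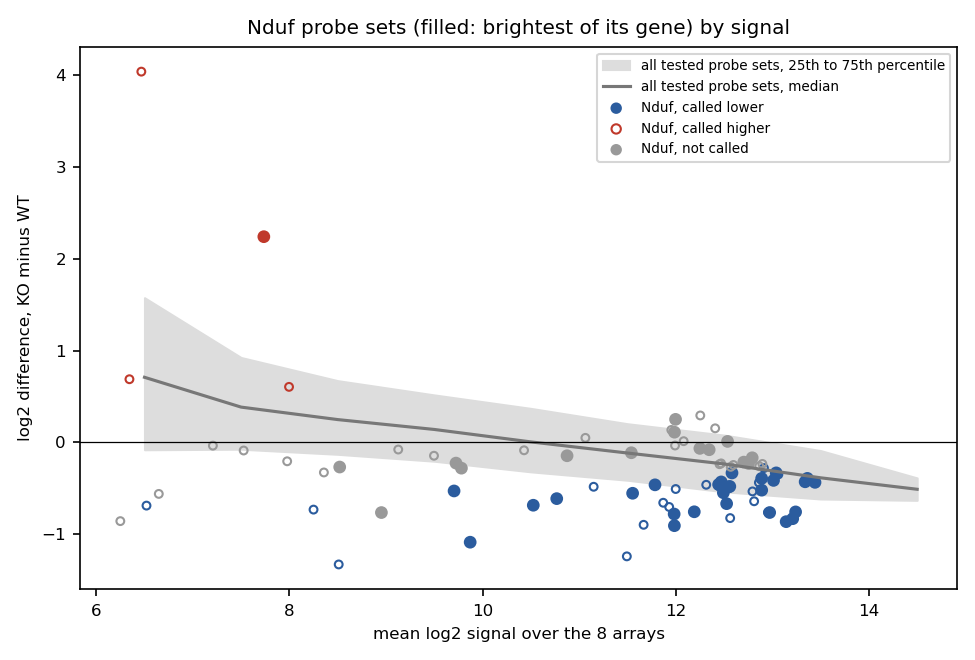
Log2 difference (KO minus WT) of the 84 tested Nduf probe sets against their mean log2 signal over 8 arrays, with filled points for the brightest probe set of each gene; the grey line and band are the median and the 25th to 75th percentile of all tested probe sets in steps of 1. The band slopes down as signal increases, and most Nduf probe sets lie below the grey line with the deposited scaling; the 4 probe sets called higher are dim, and scaling by the hybridisation controls moves line and points up together.

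The promoters of the genes with large differences were looked at because EKLF is known to bind CACCC-type sequences. CCNCNCCC is described as its canonical binding sequence. A CCNCNCCC match need not contain CACCC, and the stretches marked below in Ndufaf4 and Ndufa8 do not. Windows of 250 bases before to 50 after a gene's start, from RefSeq with build GRCm38.p6, matched 38 of the 43 tested Nduf genes. The 120 bases before the start are shown for the assembly factors Ndufaf2 and Ndufaf4, the core subunit Ndufs8 and the accessory subunits Ndufa5, Ndufa12 and Ndufa8, chosen because 5 of them are among the named genes with the largest falls and Ndufa8 holds the motifs of Ndufaf4. Capitals mark CCNCNCCC, the NRF1 sequence (bound by a regulator of respiratory genes; the search allowed any base at 1 position of its inner pair) and CCAAT (bound by NF-Y), on either strand.
Ndufaf2 (chr13:108158626-108158745, minus strand): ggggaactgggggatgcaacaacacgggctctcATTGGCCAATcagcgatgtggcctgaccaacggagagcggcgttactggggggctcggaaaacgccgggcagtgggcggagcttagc
Ndufa5 (chr6:24527691-24527810, minus strand): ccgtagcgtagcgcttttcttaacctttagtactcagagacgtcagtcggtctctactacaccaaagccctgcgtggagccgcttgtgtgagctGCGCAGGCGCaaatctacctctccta
Ndufa12 (chr10:94198915-94199034, plus strand): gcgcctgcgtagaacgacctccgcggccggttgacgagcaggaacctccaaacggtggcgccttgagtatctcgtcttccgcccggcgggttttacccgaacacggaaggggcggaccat
Ndufs8 (chr19:3912775-3912894, minus strand): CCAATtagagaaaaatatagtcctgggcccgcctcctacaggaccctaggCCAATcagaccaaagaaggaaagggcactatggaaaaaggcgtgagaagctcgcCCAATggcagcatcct
Ndufaf4 (chr4:24897963-24898082, plus strand): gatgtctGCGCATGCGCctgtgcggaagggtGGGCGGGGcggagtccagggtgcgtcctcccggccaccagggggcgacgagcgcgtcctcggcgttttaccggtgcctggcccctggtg
Ndufa8 (chr2:36049339-36049458, minus strand): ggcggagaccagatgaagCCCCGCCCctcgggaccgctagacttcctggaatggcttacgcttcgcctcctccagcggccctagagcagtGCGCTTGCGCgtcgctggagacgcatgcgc

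Shares were counted per gene with a window, and a gene held a sequence where any of its windows did. CCNCNCCC, searched like the others on both strands, was in 19 of the 38 Nduf genes (50%), beside 51.9% of all 27025 genes. It was in 10 of 25 Nduf genes called lower (40%) and in 9 of 13 tested Nduf genes not called lower (69.2%). The shorter CACCC, which can overlap it, was in 44.7% of Nduf genes and 59.8% of all genes. A missing match says only that these letters are not in the window.

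For the other sequences the shares of Nduf genes and of all genes with a window are given side by side, and their differences were not tested. AAGATGGC, a binding sequence of YY1, was in 7 of 38 Nduf genes (18.4%) and 3.19% of all genes, and the NRF1 sequence was in 6 of 38 (15.8%) and 5.19%. CCGGAAG, an ETS-type sequence, was in 15.8% of Nduf genes and 9.93% of all genes, and CCAAT in 31.6% and 41.1%. Ndufaf4 and Ndufa8 carried both CCNCNCCC and the NRF1 sequence in the stretch shown, Ndufaf2 carried a CCAAT pair on opposite strands, and Ndufa12 carried none of the 3 marked sequences there. These matches are descriptions of the letters and were not tested for binding.

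Core subunits carry the electron path, and 4 of the 6 measured ones were called lower, with a median difference of -0.44 (0.30 with hybridisation control scaling). Called lower were 21% of all tested genes, and 39.1% of those in the interquartile signal range of the Nduf genes. With the mean over all probe sets of a gene, 2 of the 6 core subunits were called lower and the median was -0.17. Ndufs8, which holds iron-sulfur clusters close to the ubiquinone site, had log2 signals of 12.81, 12.79, 13.00 and 12.58 in KO livers, against 13.89, 13.56, 13.38 and 13.68 in WT livers. Its KO arrays all lay below its WT arrays (-0.83, SE 0.14, limma adjusted p = 0.0014). Of the 6 tested Ndufs8 probe sets, 4 were called lower and 2 were not called (-0.33 and 0.05). Ndufv1, the subunit that binds NADH and flavin, had 12.32, 12.24, 12.25 and 12.09 in KO livers, against 12.74, 12.71, 12.66 and 12.64 in WT livers. The 2 genotypes were each tight and did not overlap (-0.47, SE 0.09, limma adjusted p = 0.0033). Ndufs7, the neighbour of Ndufs8 that carries the last iron-sulfur cluster before ubiquinone, had 12.28, 12.06, 12.38 and 12.14 in KO livers, against 12.75, 12.67, 12.69 and 12.59 in WT livers. KO replicate 4 was the highest of its group and still below every WT array (-0.46, SE 0.11, limma adjusted p = 0.0063). The calls of Ndufv1 and Ndufs7 were lost with quantile normalization, poly-A control scaling, hybridisation control scaling and a replicate block. That of Ndufv1 was also lost with the mean over probe sets. Among these settings the Ndufs8 call was lost only with the hybridisation controls.

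The other core subunits were less alike. Ndufv2, the partner of Ndufv1 in the NADH-binding tip, fell by 0.43 on the log2 scale (limma adjusted p = 0.0049), while its other 2 probe sets were not called (0.15 and -0.23). The Ndufv2 call was lost with the mean over probe sets, quantile normalization, poly-A control scaling, hybridisation control scaling and a replicate block. Ndufs3, a structural subunit of the module that holds the ubiquinone site, differed by -0.17 with overlapping arrays and was not called (limma adjusted p = 0.27). Ndufs1, the large iron-sulfur subunit of the tip, was the one core gene with a positive difference: its KO arrays had 12.19, 12.03, 12.20 and 12.08, against 11.97, 11.83, 11.90 and 11.79 in WT livers. All KO arrays of Ndufs1 lay above all WT arrays, and the test missed the threshold (0.25, SE 0.10, limma adjusted p = 0.052). For ND5, a proton-pumping core subunit encoded by mitochondrial DNA and measured beside the Nduf genes, the difference was -0.45 and was called lower (limma adjusted p = 0.012), but the call was lost with poly-A control scaling, with quantile normalization (-0.01) and with the hybridisation controls (0.30).

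Accessory subunits made up most of the family, and 19 of the 27 tested were called lower and 0 higher by limma (21 and 0 at an unadjusted p under 0.05), with a median difference of -0.44 (0.31 with hybridisation control scaling). Of all tested genes, 21% were called lower and 25.5% higher. In the interquartile signal range of the Nduf genes these shares were 39.1% and 12.8%. For the 19 called accessory genes the differences ran from -0.91 to -0.33. Ndufa5, a small subunit on the matrix arm, had 11.67, 11.35, 11.75 and 11.37 in KO livers, against 12.49, 12.47, 12.45 and 12.35 in WT livers. KO replicates 3 and 5 were the lowest (-0.91, SE 0.12, limma adjusted p = 0.00039), and this was the largest fall among the accessory genes with the deposited scaling. Ndufa12, another matrix-arm subunit, had 12.89, 12.57, 12.90 and 12.48 in KO livers, against 13.63, 13.57, 13.60 and 13.50 in WT livers. The same KO arrays were low again, and no KO array reached a WT array (-0.86, SE 0.12, limma adjusted p = 0.0006).

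Ndufb2 and Ndufb9, membrane subunits of the distal arm, the part that holds proton pumps far from the matrix arm, also had KO replicates 3 and 5 lowest. Ndufb2 had 11.77, 11.38, 11.76 and 11.47 in KO livers, against 12.58, 12.33, 12.25 and 12.34 in WT livers (-0.78, SE 0.13, limma adjusted p = 0.0013). Ndufb9 had 12.95, 12.72, 13.04 and 12.74 in KO livers, against 13.67, 13.62, 13.66 and 13.53 in WT livers (-0.76, SE 0.11, limma adjusted p = 0.00054). Neither gene overlapped between genotypes. Ndufb1 had a difference of like size but was not called: its log2 signals were 9.19, 7.98, 9.12 and 7.99 in KO livers, against 9.39, 9.14, 9.35 and 9.46 in WT livers. KO replicates 3 and 5 were more than 1 log2 unit below the other KO arrays, of which replicate 2 lay within the WT range (-0.76, SE 0.30, limma adjusted p = 0.057). Ndufb10, another distal-arm subunit, fell by 0.76 on the log2 scale (limma adjusted p = 0.00082), and Ndufc1, of the proximal membrane arm, by 0.67 (limma adjusted p = 0.005). The Ndufc1 call was lost with poly-A control scaling, hybridisation control scaling and a replicate block.

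The accessory genes that were not called were, beside Ndufb1, Ndufa13, Ndufa7, Ndufs4, Ndufv3, Ndufb5, Ndufa6 and Ndufa10, with differences from -0.23 to 0.11. Several of these, Ndufa7, Ndufs4, Ndufv3 and Ndufa6, belong to the NADH-binding module. By module, 4 of 9 tested subunits of the NADH-binding module were called lower, with a median difference of -0.21, and 4 of 5 subunits of the ubiquinone-binding module, with a median of -0.52. For the membrane arm the counts were 6 of 8 in its proximal part (median -0.41) and 9 of 11 in its distal part (median -0.48). Of all tested genes, 21% were called lower. In the interquartile signal range of the Nduf genes it was 39.1% of all genes, with a median of -0.21, and the NADH-binding module lay close to that. The difference between modules was not tested. All 4 medians turned positive when arrays were scaled by the hybridisation controls (0.23 to 0.53), and that of the NADH-binding module was 0.01 after quantile normalization.

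Among the called accessory genes the statistical margin was not even. Ndufb8, Ndufb11 and Ndufb7 lost the call when single arrays were left out: for Ndufb8 the limma adjusted p was 0.039 with all arrays and 0.02 to 0.089 over the 8 omissions, and for Ndufb11 it was 0.026 with all arrays and 0.011 to 0.072. Without WT replicate 1, the array with high Xist, the X-linked Ndufb11 differed by -0.30 (limma adjusted p = 0.072), while the X-linked Ndufa1 stayed called. The part of fetal sex in these values was not tested. Ndufb7 lost the call without KO replicate 5 (limma adjusted p = 0.052) or WT replicate 3 (0.056).

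**Figure D3:**
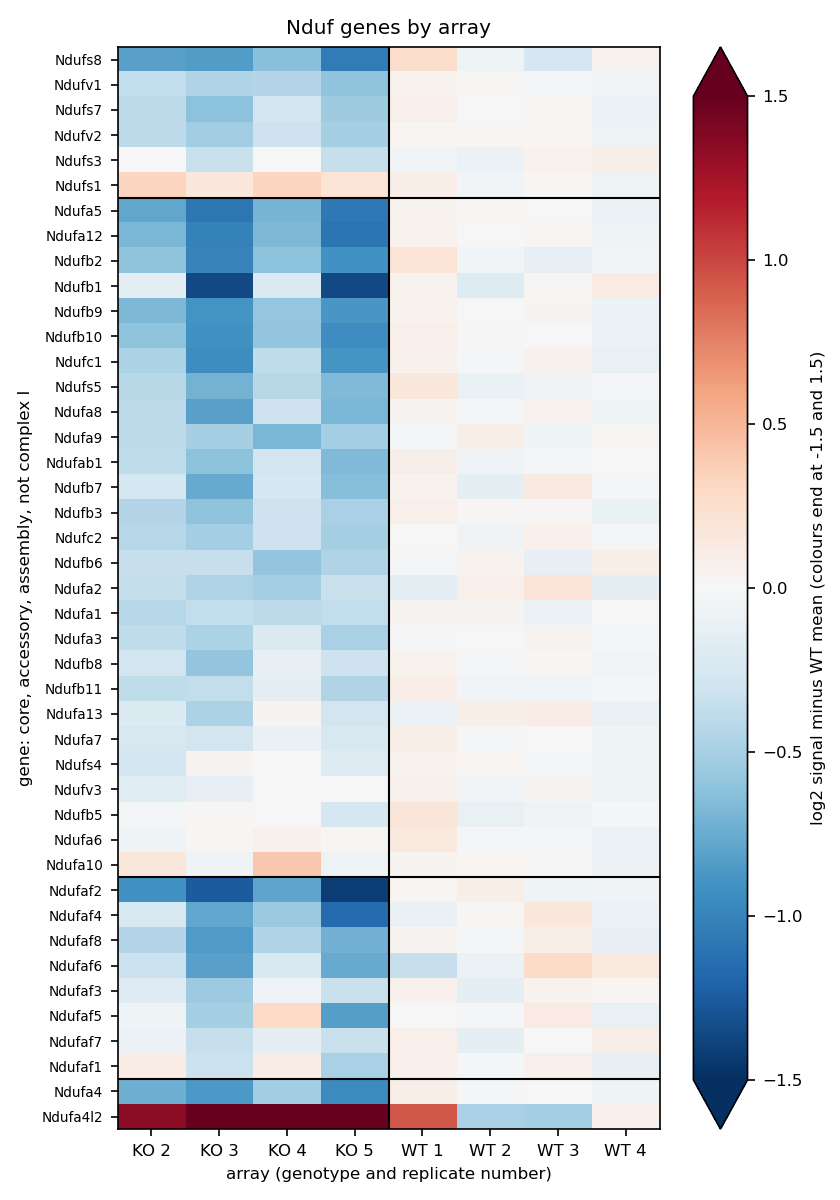
Log2 signal minus the WT mean for the 43 tested Nduf genes (rows) in the 4 KO arrays (left) and the 4 WT arrays (right). KO replicates 3 and 5 are the darkest blue columns; with the arrays scaled by the hybridisation controls most KO cells would turn to the other side of 0.

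Assembly factors of the Ndufaf group had the largest single fall with the deposited scaling, and their class medians spread most widely between KO arrays. Of 8 tested, 4 were called lower and 0 higher by limma (also at an unadjusted p under 0.05), beside 21% and 25.5% of all tested genes. The median difference was -0.41, and all 8 differences were below 0 with the deposited scaling (the median was 0.34 with hybridisation control scaling). Ndufaf2, a paralog of Ndufa12 that acts late in assembly, had 9.51, 9.17, 9.63 and 9.01 in KO livers, against 10.45, 10.50, 10.36 and 10.36 in WT livers. All KO arrays lay well below the WT arrays (-1.09, SE 0.15, a fold of 2.13, limma adjusted p = 0.00044).

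Ndufaf4, which acts with Ndufaf3 on the ubiquinone-binding module, had 10.62, 10.09, 10.31 and 9.71 in KO livers, against 10.77, 10.89, 11.03 and 10.79 in WT livers. The KO arrays were spread over almost 1 log2 unit and did not overlap the WT arrays (-0.68, SE 0.19, limma adjusted p = 0.014). Its other probe set overlapped and was not called (-0.15, limma adjusted p = 0.64). The Ndufaf4 call was lost with the mean over probe sets and with the methods' t-test after Benjamini-Hochberg adjustment. It was also lost with no filter, with poly-A control scaling and with a replicate block. Ndufaf8, the partner of the methyltransferase-like Ndufaf5, had 10.63, 10.23, 10.63 and 10.36 in KO livers, against 11.11, 11.06, 11.18 and 10.95 in WT livers. Its genotypes did not overlap either (-0.61, SE 0.12, limma adjusted p = 0.0034). Ndufaf6 was called with overlapping arrays (-0.53, limma adjusted p = 0.04), and the call was lost without any one of KO replicates 3 and 5 or WT replicates 2, 3 and 4 (limma adjusted p 0.063 to 0.102). Ndufaf3, Ndufaf5, Ndufaf7 and Ndufaf1 were not called, with differences from -0.28 to -0.15. Ndufaf5 had a KO SD of 0.49, the largest in this class.

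The classes could also be compared array by array, as medians over genes of the log2 signal minus the WT mean. For core subunits these medians were -0.38, -0.48, -0.30 and -0.52 in KO replicates 2 to 5, and for accessory subunits -0.38, -0.51, -0.31 and -0.49. The assembly factors had -0.22, -0.66, -0.19 and -0.73, so that replicates 3 and 5 lay further down and replicates 2 and 4 closer to WT than for the subunits. In the WT arrays all 3 classes stayed between -0.07 and 0.09. Over all tested genes the KO medians were 0.06, 0.02, 0.06 and 0.06. KO replicate 3 was the lowest KO array for 20 of the 43 Nduf genes and replicate 5 for 15, while replicate 4 was the highest for 26.

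**Figure D4:**
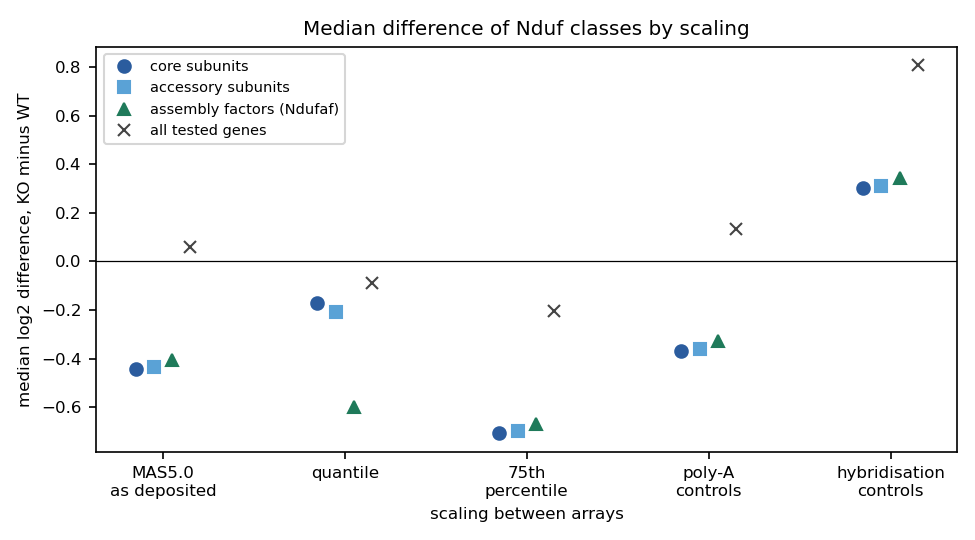
Median log2 difference (KO minus WT) of core subunits, accessory subunits, Ndufaf assembly factors and all tested genes under 5 ways of scaling the arrays. The 3 classes lie together at -0.44 to -0.41 with the deposited scaling and apart after quantile normalization (-0.17 for core subunits, -0.60 for assembly factors), and all are above 0 with the hybridisation controls.

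After quantile normalization the classes parted: 1 of 6 core subunits, 9 of 27 accessory subunits and 6 of 8 assembly factors were called lower, beside 25.8% of all genes, with medians of -0.17, -0.21 and -0.60, and 1 core subunit, Ndufs1, was called higher. The assembly factors, whose probe sets are dimmer, thus went further down while the bright subunits moved toward 0. The difference between classes was not tested.

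The 2 Nduf-named genes outside complex I had differences of opposite sign. Ndufa4, now counted as a subunit of cytochrome c oxidase (complex IV), had 12.63, 12.49, 12.84 and 12.40 in KO livers, against 13.44, 13.33, 13.36 and 13.29 in WT livers. All KO arrays were below all WT arrays (-0.76, SE 0.12, limma adjusted p = 0.0008). Ndufa4l2, its paralog and a known target of hypoxia-inducible factor, had 7.96, 9.29, 8.50 and 9.68 in KO livers, against 7.55, 6.12, 6.10 and 6.69 in WT livers. Every KO array was above every WT array, by at least 4.63-fold on the group means when the WT mean, which was under a signal of 100, is set to 100 (fitted difference 2.24, SE 0.43, limma adjusted p = 0.0028); this gene passed the filter only through the KO arrays. KO replicates 3 and 5, the low arrays for most Nduf genes, were the high ones here. Ndufa4 was called lower under quantile normalization as well and was not called under hybridisation control scaling. Because Ndufa4l2 entered the test only through its high KO arrays, its call, also under other scalings, is no independent sign of a rise.

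**Figure D5:**
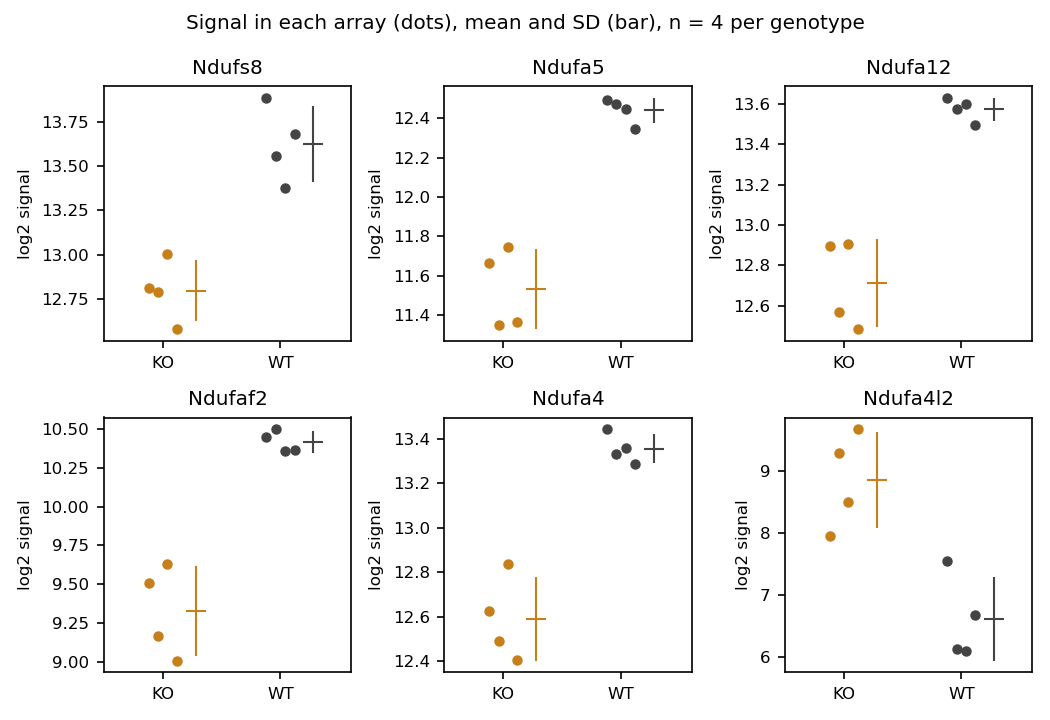
Log2 signal in each array (dots) with mean and SD (n = 4 per genotype), KO left and WT right, for Ndufs8, Ndufa5, Ndufa12, Ndufaf2, Ndufa4 and Ndufa4l2. KO dots lie below WT dots in the first 5 panels and above them for Ndufa4l2 with the deposited scaling; the y axes differ and do not start at 0.

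Probe sets of 1 gene did not always differ in the same direction. Of the 84 tested Nduf probe sets, 45 were called lower and 4 higher, where 17.7% and 34.4% of all tested probe sets were called lower and higher. Of 22 genes with several tested probe sets, every one was called lower for 7 (Ndufa5, Ndufaf8, Ndufb6, Ndufb7, Ndufb9, Ndufc1 and Ndufs7), and 3 genes (Ndufa12, Ndufab1 and Ndufa3) had probe sets called both ways, of which only Ndufab1 had a higher probe set above a signal of 100 in both genotypes. Ndufa12 had 3 bright probe sets lower by 0.76 to 0.86, while a dim one read 8.19, 8.77, 8.63 and 8.36 in KO livers, against 4.90, 3.37, 4.82 and 4.70 in WT livers. That probe set was under a signal of 100 in every WT array and at least 3.59-fold higher in KO livers on the group means with WT set to 100; it passed the filter only through the KO arrays, so its call is no independent sign of a rise.

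Ndufab1, the mitochondrial acyl carrier protein, was called lower on its brightest probe set at 12.41, 12.18, 12.52 and 12.13 in KO livers, against 12.88, 12.73, 12.76 and 12.79 in WT livers (-0.48, limma adjusted p = 0.0079). A dimmer probe set of Ndufab1 read 8.01, 8.75, 8.07 and 8.37 in KO livers, against 7.71, 7.85, 7.71 and 7.51 in WT livers, all KO arrays above all WT arrays (0.61, limma adjusted p = 0.017), and another fell by 1.33. Ndufa3, a membrane-arm subunit, was called lower on its brightest probe set at 13.18, 13.08, 13.34 and 13.07 in KO livers, against 13.54, 13.55, 13.61 and 13.54 in WT livers (-0.39, limma adjusted p = 0.0095). Its dimmest probe set read 6.29, 6.99, 6.85 and 6.62 in KO livers, against 6.48, 5.75, 5.95 and 5.81 in WT livers, overlapping, and at least 1.03-fold higher in KO livers on the group means with WT set to 100. This probe set, too, passed the filter only through the KO arrays. For Ndufv1 the other 2 probe sets were not called, with differences of 0.14 and -0.03, so the call of this gene rested on 1 of 3. Which transcript each probe set reads was not tested. With the mean over all probe sets of a gene, 19 Nduf genes were called lower and 2 higher, and Ndufa12 was then at 0.40 (limma adjusted p = 0.019).

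The rest of the pathway was read from gene lists. Of 10 other complex I assembly factors, 3 were called lower and 2 higher, with a median difference of -0.01. Of all tested genes, 21% were called lower and 25.5% higher, so these counts are close to the shares of all genes. Dmac1, which acts on the distal membrane arm, was at -0.69 and Tmem126b, of the membrane-arm assembly complex, at -0.66, whereas Tmem186 of that same complex was at 1.75 and Dmac2 at 0.70. The difference between the Ndufaf group and these factors was not tested.

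Genes of the other respiratory complexes were called lower in part with the deposited scaling. Of the genes tested, 9 of 9 were called lower for complex IV (median -0.64), 5 of 9 for complex III (-0.41) and 8 of 14 for complex V, the ATP synthase (-0.40). Over all tested genes 21% were called lower and 25.5% higher, but most genes of these complexes were bright. Of all tested probe sets, 40.7% were called lower at a mean log2 signal of 12 to 13, 55.6% at 13 to 14 and 85% from 14 up. For complex II, which feeds electrons from succinate, 2 of 4 were lower and Sdhc was higher (median -0.25). Among 19 genes of mitochondrial content and biogenesis 8 were lower, led by Tomm40, an import pore, at -1.04, and 3 were higher: Ppargc1b at 0.71, Nrf1 at 0.60 and Esrra at 0.53, all regulators of mitochondrial genes. With hybridisation control scaling the medians of complexes II to V and of this list were 0.11 to 0.50, and after quantile normalization -0.18 to -0.02. Quantile normalization left 3 of 9 genes called lower for complex IV, 1 of 9 for complex III and 2 of 14 for complex V. The share of all genes was then 25.8%, and 1 complex III gene was called higher.

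Markers of the cell types in fetal liver moved with the genotype as well. The shares of all tested genes, for comparison, were 21% called lower and 25.5% higher. For the erythroid list, 6 of 7 tested markers were called lower (median -1.07), and their summed signal was 45153 to 49130 in KO arrays, against 109401 to 118222 in WT arrays; of the 8 measured, Hba-a1 was below 100 in both genotypes. For the hepatocyte list, 6 of 9 were called lower (median -0.59, and 0.16 with hybridisation control scaling), with sums of 132845 to 164878 in KO arrays, against 210455 to 235021 in WT arrays. After quantile normalization 0 of the 9 were called lower and 0 higher (median -0.13). The brightest of them, such as Alb and Afp, had log2 signals above 14, where 85% of all tested probe sets were called lower with the deposited scaling. Of 9 tested macrophage markers 0 were called by limma (2 lower and 1 higher at an unadjusted p under 0.05), and their sums, 12104 to 26162 in KO and 17733 to 21964 in WT arrays, overlapped. Endothelial (6 of 8) and megakaryocyte (4 of 6) markers were called higher in part, with medians of 0.63 and 0.58; after quantile normalization and with the 75th percentile 3 endothelial markers were called higher, and with the 75th percentile 1 was called lower. Of 2 tested lymphoid markers 1 was called higher, and the summed signal of the list was 1264 to 2990 in KO arrays, against 973 to 1099 in WT arrays. The part of these cell types in the Nduf values was not tested.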

How the data were processed

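The deposited values are MAS5.0 signal intensities, which the authors computed per probe set and array on a linear scale. R 3.0.2 is listed with MAS5 in the submitters' processing notes, and no software version of MAS5.0 is. Trimmed by 2% at both ends, every array has a mean signal of 500. The table holds 45101 probe sets. Median signals were 96.7 to 114 in KO and 79.5 to 84.1 in WT arrays. Precision is limited by having 4 arrays per genotype. Genes were named from the platform annotation, where 10 further probe sets with several symbols include an Nduf gene and were left out.

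The intensities were turned to log2 with no pseudocount and compared with limma 3.58.1 in R 4.3.3 (lmFit, eBayes, two-sided), genotype only, on probe sets with a KO or WT mean over 100. Figures and motif searches used Python 3.11.15. The pipeline was tested on simulated data. Values by array are given for the 3 core, 5 accessory and 3 assembly genes with the largest absolute difference, genes called higher, Ndufa4 and Ndufa4l2, and genes with probe sets called both ways; Ndufs1 was added after its values were seen. Members and lists were chosen with earlier results of these data known. Alternatives were other scalings, pseudocounts of 16 and 64, other filters, limma with trend, the methods' t-test, a replicate block, leaving out arrays and other gene summaries. The methods name a two-sided two-sample t-test without its form, and here it was run as a Welch test on the same filtered probe sets.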

Additional observations from a re-analysis of the deposited data

Results flagged for a closer look

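In 5 of the 86 groups of 4 arrays checked (43 genes in 2 genotypes), 1 array stood apart from its group by Dixon's criterion, and chance flags about 1 group in 20. Ndufb5, a membrane-arm subunit, was at a log2 signal of 12.03 in KO replicate 5, below 12.26 to 12.30 in the other KO arrays. Ndufa3 was at 13.61 in WT replicate 3, above 13.54 to 13.55 in the other WT arrays. Ndufb11 was at 13.31 in WT replicate 1, above 13.16 to 13.18 in the others. Ndufaf3 was at 9.78 in WT replicate 2, below 9.96 to 9.98, and Ndufv2 was at 13.48 in WT replicate 4, below 13.57 to 13.58.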

How the results depend on the processing

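With the deposited scaling 28 Nduf genes were called lower, 1 higher, and the median log2 difference was -0.44. Quantile normalization gave 17 lower and 2 higher (median -0.25), the 75th percentile 37 lower (median -0.70), poly-A control scaling 10 lower (median -0.36), and hybridisation control scaling 0 lower and 19 higher (median 0.31). Of all genes 25.8%, 36.8%, 11.6% and 2.78% were called lower under these scalings, in that order, and 75.2% higher under the last. The shifts of the median of all genes were -0.15, -0.26, 0.08 and 0.75. The Nduf median lay at -0.50 relative to it except after quantile normalization (-0.16). The other scalings shift all genes of an array alike and could not change this distance. The mean over probe sets gave 2 higher and a median of -0.28. A pseudocount of 64, a filter at a higher signal, limma with trend, with or without the robust option, and the methods' t-test, with or without Benjamini-Hochberg adjustment, each gave 2 higher, Ndufa4l2 and Ndufs1. Leaving out single arrays gave 24 to 30 lower, 1 to 2 higher and medians of -0.47 to -0.41; 24 lower came without KO replicate 5 and 2 higher without KO replicate 3. Replicate numbers 2, 3 and 4 occur in both genotypes but did not mark pairs (correlations of deviations -0.0008, -0.08 and -0.03), and a replicate block, fitted on fewer degrees of freedom, gave 9 lower (20.9%, beside 10.9% of all genes) and a median of -0.41.

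Signs turned in these genes, and the cause was not tested beyond the shift of scale itself. With hybridisation control scaling the positive differences were Ndufaf4 (0.063), Ndufc1 (0.081), Ndufaf8 (0.14), Ndufs5 (0.19), Ndufa8 (0.20), Ndufaf6 (0.22), Ndufa9 (0.23), Ndufab1 (0.26), Ndufb7 (0.27), Ndufv1 (0.28), Ndufb3 (0.29), Ndufs7 (0.29), Ndufc2 (0.31), Ndufb6 (0.32), Ndufv2 (0.32), Ndufa2 (0.33), Ndufa1 (0.36), Ndufa3 (0.36), Ndufb8 (0.42), Ndufb11 (0.42), Ndufaf3 (0.47), Ndufaf5 (0.48), Ndufa13 (0.52), Ndufaf7 (0.52), Ndufa7 (0.53), Ndufs3 (0.58), Ndufaf1 (0.60), Ndufs4 (0.64), Ndufv3 (0.67), Ndufb5 (0.68). After quantile normalization Ndufa13 (0.019), Ndufa7 (0.029), Ndufs4 (0.0077), Ndufv3 (0.13), Ndufb5 (0.13) and Ndufs3 (0.088) were above 0. With the 75th percentile Ndufa6 (-0.25), Ndufa10 (-0.15) and Ndufs1 (-0.013) were below 0. With the mean over probe sets Ndufa12 (0.40), Ndufs4 (0.00058) and Ndufa10 (-0.23) turned. Ndufb5 turned with poly-A control scaling (0.010) and with the replicate block (0.057), and Ndufa6 without KO replicate 4 (-0.0069) or WT replicate 4 (-0.018), with 0.060 as the highest value over the omissions. Signal limits dim probe sets: Ndufb4 could not be tested, and folds against a group under 100 are lower bounds.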
